A study of Homo sapiens with 24 samples.

Results

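Immediate early response genes are transcribed within minutes of a stimulus without new protein synthesis. The 10 genes described here were EGR1, EGR2, EGR3, IER2, IER3, IER5, NR4A1, KLF2, KLF6 and ZFP36. Chromatin accessibility around them was read from ATAC-seq, in which a transposase cuts and tags the DNA it can reach. Every region that was called changed and lay within 10 kb of an annotated transcription start site (TSS) of a member, or overlapped its gene body, was assigned to that member. By this rule 11 of the 26369 distinct regions in the deposited lists were found, at 5 of the 10 genes: IER2, IER3, NR4A1, KLF2 and ZFP36. Of these regions 10 were more accessible and 1 was less accessible after treatment. Of all 26369 distinct regions, 13686 were in a list of increased regions. The other 5 genes, EGR1, EGR2, EGR3, IER5 and KLF6, had no called region by this rule in any comparison, as was so for 43.0% of all protein-coding genes.

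The cells were OCI-LY3 and VAL, 2 established human lines of diffuse large B cell lymphoma (DLBCL). Each line was exposed to 30 nM AZD4573, an inhibitor of the kinase CDK9, for 0, 3 or 8 h, which gave 6 conditions of 4 libraries and 24 libraries in all. In each condition 2 libraries were made from 50000 cells by the standard protocol and 2 from 5000 cells by Fast-ATAC, by the labels, while the study's methods describe Fast-ATAC on 50000 cells. Each treated time had been compared with 0 h of the same line, and the lists call this control DMSO. The labels do not say that the 4 libraries of a condition came from separate cultures, and each line is a single model of the disease. Each comparison gave a list of increased and a list of decreased regions, so there were 8 lists. Comparisons are named by line and time, so that VAL 3 h is VAL after 3 h of treatment against 0 h. The lists held 3545 increased and 1786 decreased regions in VAL 3 h, 11121 and 9260 in VAL 8 h, 1852 and 1677 in OCI-LY3 3 h, and 4367 and 3463 in OCI-LY3 8 h. The lists hold coordinates and no value per library. Depth, levels and replicate error are therefore unknown here, the B cell identity of the lines could not be checked against markers, and no difference below was tested. A gene without a listed region may have had no peak, an unchanged peak, or a change short of the limits used by the authors. The comparisons at 3 h and 8 h of a line share their 0 h libraries.

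Transcription of this class of gene is switched on by kinase cascades that act on factors already present in the cell, above all serum response factor (SRF) with its ELK and MRTF partners, CREB and NF-kB. Many of these genes carry RNA polymerase paused just past the TSS, and CDK9, the kinase of the elongation factor P-TEFb, releases it. In B cells many genes of the class, though not all, are induced through the antigen receptor. Products of the class include transcription factors and brakes on the response, such as mRNA decay factors.

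The sequences just before the TSS are shown for 5 members so that promoters of members with and without a called region can be read side by side. EGR1 and EGR2 stand for members whose promoter holds a binding element of SRF and which had no called region. IER3, KLF2 and ZFP36 stand for members whose TSS lay inside an increased region. Each is the 250 bases before the canonical TSS in GRCh37, read in the direction of transcription. They are chr5:137800918-137801167 on the plus strand for EGR1, chr10:64576127-64576376 on the minus strand for EGR2, chr6:30712325-30712574 on the minus strand for IER3, chr19:16435387-16435636 on the plus strand for KLF2, and chr19:39897237-39897486 on the plus strand for ZFP36. Capitals mark each match to the CArG box, the element bound by SRF.
EGR1: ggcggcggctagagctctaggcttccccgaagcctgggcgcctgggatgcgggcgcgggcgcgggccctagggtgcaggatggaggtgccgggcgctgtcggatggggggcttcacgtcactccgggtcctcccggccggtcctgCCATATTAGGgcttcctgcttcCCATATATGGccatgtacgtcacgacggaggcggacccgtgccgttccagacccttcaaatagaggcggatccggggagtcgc
EGR2: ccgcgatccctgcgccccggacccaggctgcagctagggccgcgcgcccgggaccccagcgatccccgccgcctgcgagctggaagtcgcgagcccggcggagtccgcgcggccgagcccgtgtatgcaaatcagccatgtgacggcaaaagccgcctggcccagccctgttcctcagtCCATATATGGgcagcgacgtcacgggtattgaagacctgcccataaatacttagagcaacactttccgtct
IER3: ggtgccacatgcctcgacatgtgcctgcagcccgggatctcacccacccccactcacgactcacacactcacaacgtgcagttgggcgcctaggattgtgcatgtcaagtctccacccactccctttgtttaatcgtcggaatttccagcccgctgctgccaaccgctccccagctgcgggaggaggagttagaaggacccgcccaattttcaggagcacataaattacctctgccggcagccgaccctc
KLF2: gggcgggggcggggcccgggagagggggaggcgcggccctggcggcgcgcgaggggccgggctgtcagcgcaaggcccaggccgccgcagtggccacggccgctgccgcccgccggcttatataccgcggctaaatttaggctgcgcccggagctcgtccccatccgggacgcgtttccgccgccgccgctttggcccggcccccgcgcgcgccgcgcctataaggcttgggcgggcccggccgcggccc
ZFP36: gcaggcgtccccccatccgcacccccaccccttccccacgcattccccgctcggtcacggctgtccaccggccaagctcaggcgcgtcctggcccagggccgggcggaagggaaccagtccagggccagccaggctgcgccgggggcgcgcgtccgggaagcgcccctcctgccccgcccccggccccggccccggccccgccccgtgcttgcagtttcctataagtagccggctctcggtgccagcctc

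From 250 bases before to 50 bases after the canonical TSS, a CArG box was matched in 3 of the 10 members, EGR1, EGR2 and EGR3, and in 1.20% of 19881 protein-coding promoters. EGR1 held 2 matches, at bases -105 to -96 and -83 to -74 from the TSS, and EGR2 held 1 at -71 to -62. EGR3 also held 1 match at -71 to -62. A further 5 motifs were searched on both strands with no mismatch: CRE (TGACGTCA), AP-1 (TGACTCA), the EGR site (GCGTGGGCG), the NR4A site NBRE (AAAGGTCA) and the NF-kB site. These were matched in 0 members each, and in 2.68%, 3.56%, 1.17%, 0.895% and 0.594% of all promoters in that order. A match is a string of letters and does not show binding, and a missing match says only that these letters are not in the window. The GC content of the printed promoters ranged from 59.2% for IER3 to 80.0% for KLF2.

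The EGR genes encode zinc finger transcription factors that bind GC-rich sites, and EGR2 and EGR3 are known to restrain lymphocyte activation. EGR1 (GRCh37, chr5:137801168-137804992, plus strand) was the member farthest from any called change, together with EGR2 (chr10:64571756-64578927, minus strand). The region nearest to EGR1 was increased in VAL 8 h and lay 109 kb away, and the region nearest to EGR2 was decreased in VAL 8 h and lay 88.6 kb away. EGR3 (chr8:22545172-22550993, minus strand) had regions on either side outside the 10 kb limit. A region 25.1 kb upstream, inside PEBP4, was increased in VAL at both times and in OCI-LY3 8 h. A second, 22.6 kb downstream, covered the TSS of BIN3 and was increased in VAL at both times. These regions thus lay at or inside other genes, but the nearest protein-coding TSS to the upstream one was that of EGR3.

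The IER genes encode small nuclear or stress-induced proteins, among them IER3, a regulator of survival after stress, and IER5, a partner of the heat shock factor HSF1. IER2 (chr19:13261225-13265725, plus strand) had 3 increased regions in VAL within 10 kb, and none there in OCI-LY3. In OCI-LY3 the nearest increased regions lay 15.2 kb downstream (8 h), 31.4 kb upstream (both times) and 45.0 kb upstream (8 h), the last of these overlapping LYL1 and TRMT1. Of the 3 VAL regions, the first, chr19:13260688-13261828, ran from base -537 to base 603 counted from the canonical TSS, reached exon 1 of 2, and was increased at 3 h and 8 h. It also covered the TSS of the neighbouring gene STX10. The second, chr19:13262037-13264641, was 2605 bp wide, covered 57.9% of the gene, reached exon 2, took in an alternative TSS and was increased at both times. The third, chr19:13265873-13267558, lay past the gene end, 3084 bp from the nearest IER2 TSS, and was increased at 8 h. Apart from a short gap, the first pair of regions spanned the IER2 promoter and most of its transcribed length.

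IER3 (chr6:30710976-30712325, minus strand) is the shortest member, at 1350 bp. It lay wholly inside one region, chr6:30709739-30712509, which ran from base -185 to base 2585 from the canonical TSS and took in both exons. This region was increased in VAL at both times and was in neither OCI-LY3 comparison. It also covered the TSS of FLOT1, so the lists do not show to which gene the change belongs. Beyond 10 kb, regions 12.9 and 22.5 kb downstream, in FLOT1 and at TUBB, were increased in VAL. IER5 (chr1:181057836-181062036, plus strand) fell just outside the rule. Its nearest region, chr1:181068285-181069346, lay 10449 bp downstream of the TSS, past the gene end, and was increased in VAL at both times. At 10 kb the count of IER genes with an increased region in VAL was thus 2 of 3, with IER5 just short of the limit, beside 16.9% of all genes at 3 h and 36.9% at 8 h.

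**Figure D1:**
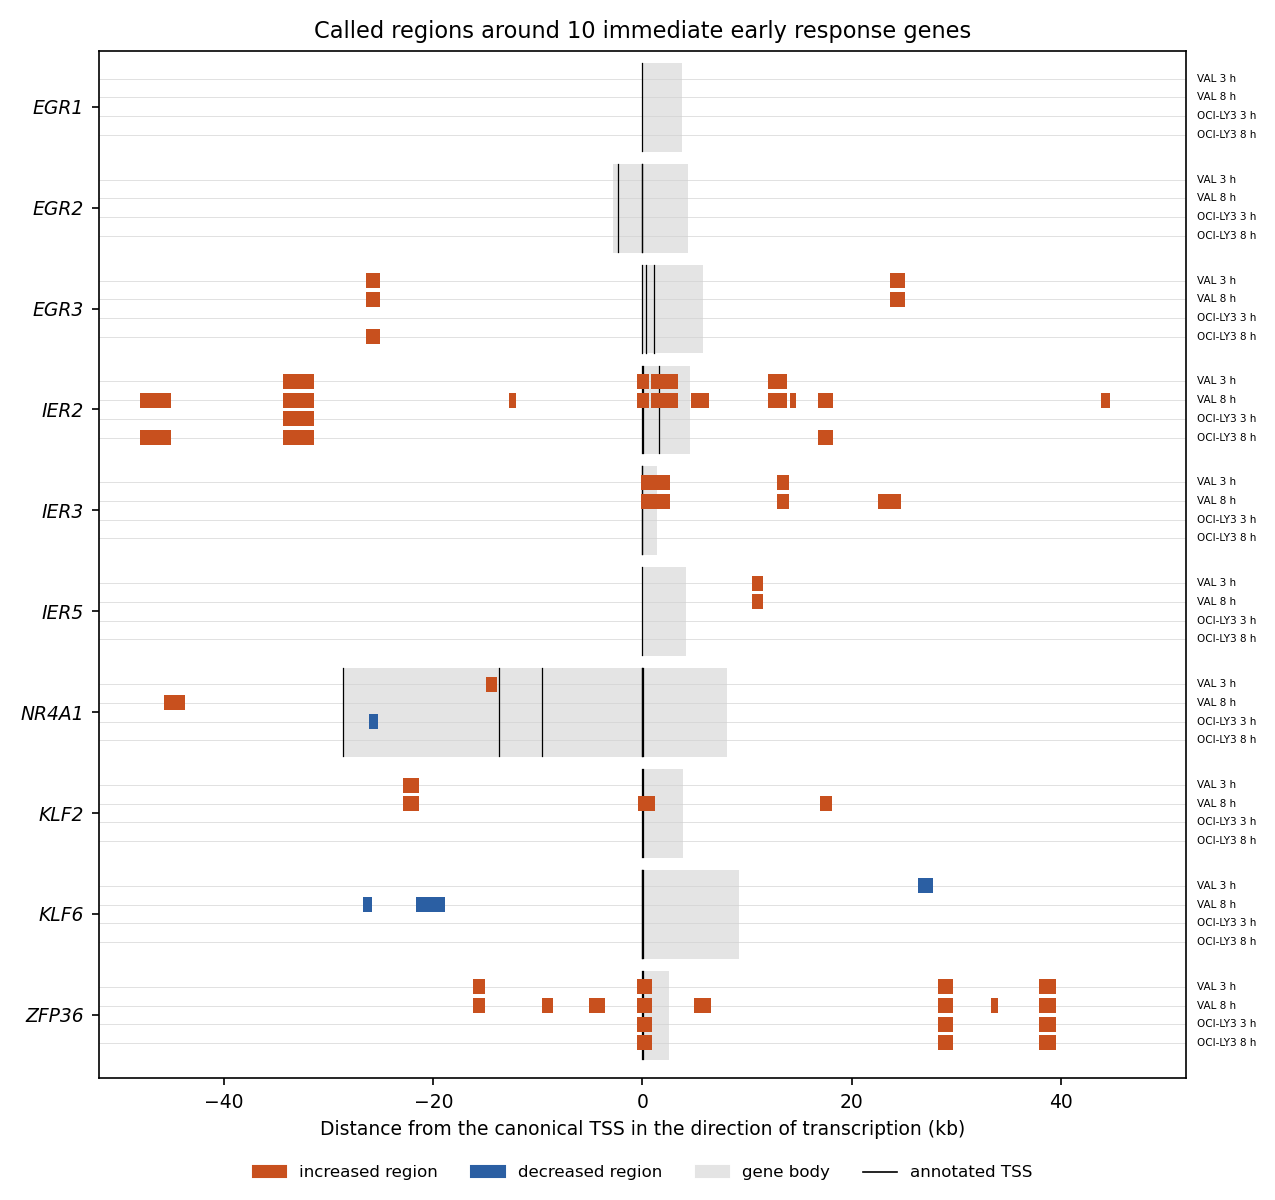
Called regions within about 50 kb of the canonical TSS of each member, drawn by distance from that TSS in kb in the direction of transcription, with 1 row for each comparison with 0 h. Orange bars are increased regions, blue bars decreased regions, grey boxes gene bodies and black lines annotated TSS. Bars over a TSS are seen at IER2, IER3, KLF2 and ZFP36, and EGR1 and EGR2 have no bar.

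NR4A1 encodes an orphan nuclear receptor that is induced by antigen receptor signalling. It was the only one of the 10 genes with a decreased region under the 10 kb rule. NR4A1 (chr12:52416616-52453291, plus strand) is also the longest member, at 36676 bp, and it has several annotated TSS. Its decreased region, chr12:52419092-52419933, was called in OCI-LY3 3 h, lay in the gene body 2476 bp downstream of the most upstream TSS, and touched none of the 7 canonical exons. Its increased region, chr12:52430233-52431306, was called in VAL 3 h and ended 193 bp before an alternative TSS. These regions lay 25293 and 13920 bp upstream of the canonical TSS. Neither was in the 8 h lists, and no region was called within 10 kb of the canonical TSS itself. At 3 h the change in OCI-LY3 and the change in VAL thus had opposite directions and were at different places in the gene. Outside the gene, an increased region lay 28.9 kb upstream of the most upstream TSS in OCI-LY3 8 h. In VAL 8 h one lay 15.1 kb upstream of that same TSS, at TAMALIN. The difference between the lines was not tested.

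KLF2 encodes a transcription factor that keeps lymphocytes quiescent and directs their homing, and KLF6 a related zinc finger factor. KLF2 (chr19:16435637-16439496, plus strand) had 1 region, chr19:16435240-16436797, which was increased in VAL 8 h. It ran from base -397 to base 1160 from the canonical TSS, covered exons 1 and 2 of 3 in part or whole, and with 77.4% GC had the highest GC content of the 11 regions. A region 21.3 kb upstream of KLF2 was increased in VAL at both times, and one 17.0 kb downstream was increased in VAL 8 h. KLF6 (chr10:3818188-3827473, minus strand) had no region within 10 kb. The 3 regions within 50 kb of it were all decreased. One lay 26.3 kb downstream and was decreased in VAL 3 h, and the others lay 18.8 and 25.8 kb upstream and were decreased in VAL 8 h. KLF6 was the only member for which each region in this wider span was decreased.

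ZFP36 encodes tristetraprolin, which binds AU-rich elements of short-lived mRNAs and hastens their decay. Under the rule of 10 kb or gene body, it was the only member at which the same region was called in both lines. The region over its TSS, chr19:39896962-39898445, was increased in all 4 comparisons. It ran from base -525 to base 958 from the canonical TSS, covered exons 1 and 2 of 2 in part or whole, and held 37.4% of the gene (chr19:39897487-39900052, plus strand). In VAL 8 h, ZFP36 gained 3 further increased regions. A region 3553 bp upstream, chr19:39892352-39893934, had the ZFP36 TSS as its nearest. A second, 8510 bp upstream at chr19:39887880-39888977, lay closer to the TSS of MED29, at 5847 bp. The last, chr19:39902452-39904079, lay 4955 bp downstream of a ZFP36 TSS and covered the TSS of PLEKHG2. Beyond 10 kb, regions 28.2 and 37.9 kb downstream, at RPS16 and SUPT5H, were increased in all 4 comparisons as well. Within 10 kb the increase was thus at the promoter in each comparison, and the flanking regions were listed in VAL 8 h, the comparison with the longest lists.

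Across the 10 members, 5 of the 11 regions covered a TSS of a member, and for 9 no protein-coding TSS was nearer than that of the member. In 2 of these 9, at IER2 and IER3, the TSS of another gene was equally near because the region covered both. A TSS of another gene was covered by 3 regions, those shared with STX10, FLOT1 and PLEKHG2. Of the 11 regions 7 overlapped a gene body and 4 were called in more than 1 comparison. A VAL list held 10 of them and an OCI-LY3 list held 2, and the VAL lists are longer. The regions had a median width of 1558 bp and a median GC content of 62.3%. Over all 26369 regions the medians were 1309 bp and 47.5%. The 10 increased regions had a median of 1570 bp and 63.1% GC, and the 13686 increased regions of all lists 1320 bp and 56.2% GC.

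By the rule of 10 kb or gene body, an increased region was found in VAL 3 h for 4 of the 10 members (IER2, IER3, NR4A1 and ZFP36), and for 16.9% of 20163 protein-coding genes. In VAL 8 h it was again 4 of 10 (IER2, IER3, KLF2 and ZFP36), while the share of all genes was 36.9%. In OCI-LY3 the count was 1 of 10, ZFP36, at 3 h and at 8 h, where 10.6% and 19% of all genes had one. A decreased region was found for 0 members in VAL 3 h, VAL 8 h and OCI-LY3 8 h, and for 4.70%, 14.2% and 8.18% of all genes. In OCI-LY3 3 h it was found for 1 member, NR4A1, and for 5.29% of all genes. For increased regions the members' share was thus near or under the background in VAL 8 h and in OCI-LY3 at both times, and above it in VAL 3 h. Member genes are short, with a median length of 4351 bp where that of protein-coding genes was 27219 bp, so the gene body rule covers less sequence in them.

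Within 1 kb of a TSS, which takes no account of gene length, the same 4 members had an increased region in VAL 3 h as under the wider rule, and the same held for the 4 in VAL 8 h. The VAL 3 h call of NR4A1 rested on an alternative TSS, 193 bp from a region that lay 13920 bp from the canonical TSS. The shares of all protein-coding genes were 10.3% at 3 h and 25.1% at 8 h. In OCI-LY3 1 of 10 members, ZFP36, had one at each time, where 5.92% of all genes did at 3 h and 9.30% at 8 h. No member had a decreased region within 1 kb of a TSS, and few genes did: 0.322% in VAL 3 h, 3.38% in VAL 8 h, 0.694% in OCI-LY3 3 h and 1.28% in OCI-LY3 8 h. In no list at this distance were 5 of the 10 members and 67.6% of all genes. At 10 kb or gene body the same 5 members were in no list, and 43.0% of all genes.

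**Figure D2:**
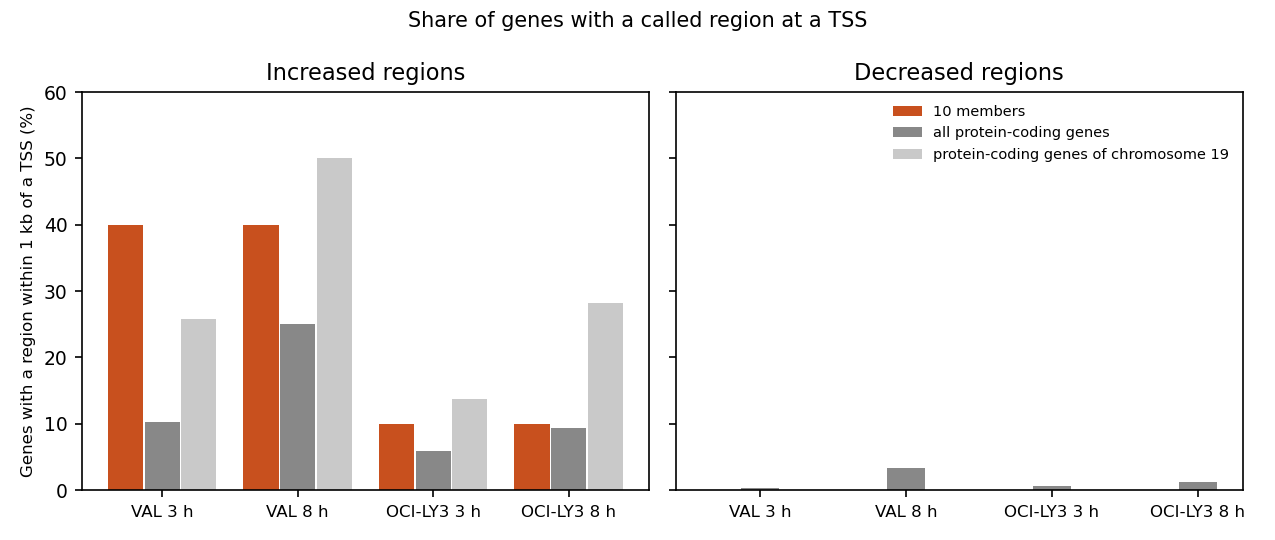
Percent of genes with an increased (left) or decreased (right) region within 1 kb of a TSS in each comparison with 0 h. Bars give the 10 members (orange), all protein-coding genes (dark grey) and, for increased regions, those of chromosome 19 (light grey). The member bars stand for 4 of 10 genes in VAL at both times and 1 of 10 in OCI-LY3, and there is no member bar for decreased regions.

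IER2, KLF2 and ZFP36 are on chromosome 19, and 8 of the 11 regions were there. Of the regions listed on chromosome 19, 99.6%, 99.4%, 97.2% and 98.7% were increased in VAL 3 h, VAL 8 h, OCI-LY3 3 h and OCI-LY3 8 h. Within 1 kb of a TSS, an increased region was found for 25.8%, 50.1%, 13.8% and 28.2% of its 1480 protein-coding genes in the same order. Without that chromosome, an increased region by the rule of 10 kb or gene body was left for 2 of 7 members in VAL 3 h, IER3 and NR4A1, beside 15.3% of the other genes. In VAL 8 h it was left for 1 of 7, IER3, beside 34.7%. In OCI-LY3 it was left for 0 of 7 at both times, beside 9.74% and 17.1%. The increased calls at ZFP36, KLF2 and IER2, which include each increased call in OCI-LY3 under this rule, therefore lie where increased calls were frequent in these lists. The decreased NR4A1 region of OCI-LY3 lies on another chromosome. What that chromosome-wide direction contributes to them was not tested.

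The distance from a member to its nearest increased region had a median of 15.9 kb in VAL 3 h and 12.8 kb in VAL 8 h. Over all protein-coding genes the medians were 290 kb and 65.1 kb. In OCI-LY3 the members' median was 624 kb at 3 h and 60.1 kb at 8 h, beside 442 kb and 164 kb. The nearest decreased region lay at a median of 1512 and 1688 kb in VAL at both times, beside 1213 and 541 kb over all genes. In OCI-LY3 it lay at 865 and 1062 kb, beside 666 and 480 kb. Over the 10 members, increased regions were thus closer than to the median gene in 3 of the 4 comparisons, and decreased regions farther in all 4. Part of this rests on chromosome 19. Without it the median distance of the 7 other members to a decreased region in OCI-LY3 3 h was 346 kb, beside 611 kb over the other genes, so that the direction turned. In the other comparisons it did not turn, with 1430 kb beside 1080 kb in VAL 3 h, 1392 kb beside 426 kb in VAL 8 h, and 822 kb beside 428 kb in OCI-LY3 8 h. To an increased region it was 152 kb beside 194 kb in OCI-LY3 8 h, 1154 kb beside 520 kb in OCI-LY3 3 h, and 22.6 kb in VAL at both times beside 337 and 78.8 kb. Longer lists give shorter distances, so values are to be read within a comparison.

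**Figure D3:**
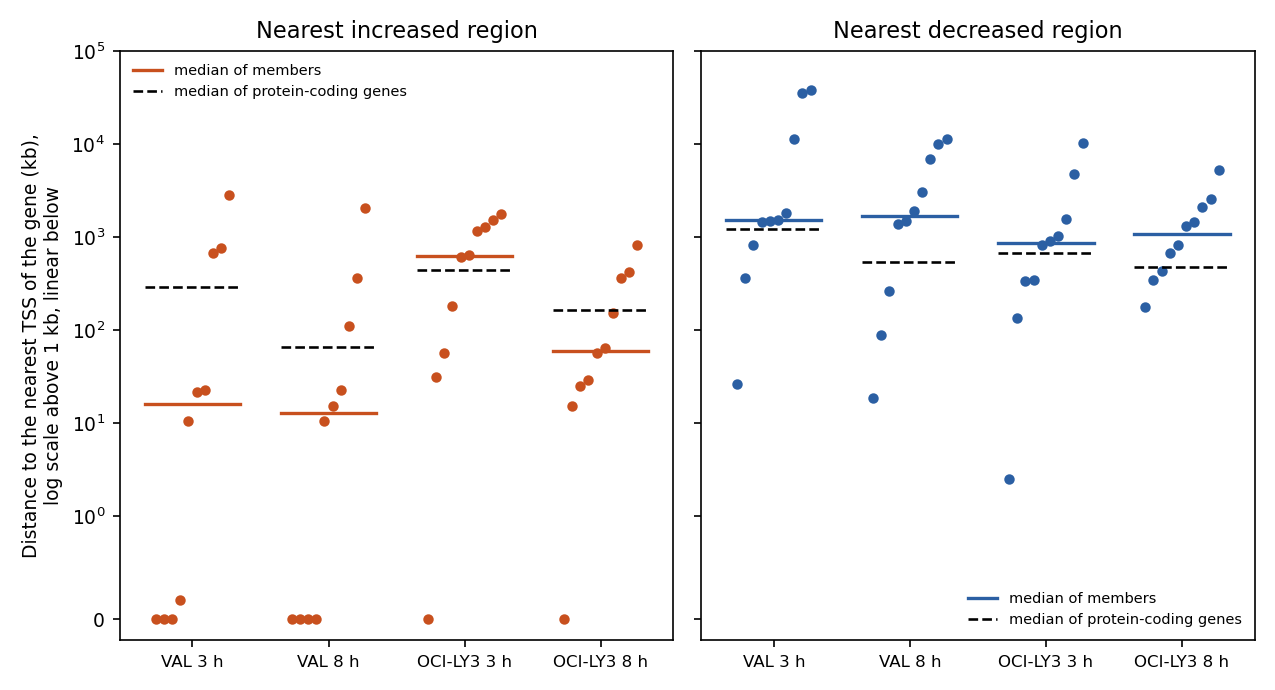
Distance in kb from the nearest annotated TSS of each of the 10 members to the nearest increased (left) or decreased (right) region, on a log axis above 1 kb and linear below, with 0 for a region over a TSS. Points are members in order of distance, solid lines their median and dashed lines the median of protein-coding genes. In VAL the solid lines for increased regions, at 15.9 and 12.8 kb, lie below the dashed ones at 290 and 65.1 kb.

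The members fell into 5 patterns over the 4 comparisons within 1 kb of a TSS. EGR1, EGR2, EGR3, IER5 and KLF6 had no call, like 67.6% of protein-coding genes. IER2 and IER3 were increased in VAL at both times and had no call in OCI-LY3, a pattern that each shared with 929 other genes (4.61%), among them the other of this pair, the paralogue IER5L and the kinase SIK1. NR4A1 was increased in VAL 3 h with no other call, which was rare, with 31 other genes (0.154%). KLF2 was increased in VAL 8 h with no other call, like 2463 other genes (12.2%), among them CCL3, CCL4 and MAFF. ZFP36 was increased in all 4 comparisons, like 572 other genes (2.84%), of which 126 are on chromosome 19. Among the related genes considered below, GADD45B, PPP1R15A and MAPK3 shared this pattern. These patterns are made of list entries and say nothing of the size of a change.

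A further 55 genes of the same programme were examined: 15 paralogues of the members, 26 other primary response genes and 14 upstream and feedback regulators. Within 1 kb of a TSS an increased region was found in VAL 8 h for 3 of the 15 paralogues, 8 of the 26 other primary response genes and 8 of the 14 regulators, beside the 25.1% of all genes. In VAL 3 h the counts were 2, 4 and 4 in that order, against 10.3%. The counts of OCI-LY3 were 0, 3 and 1 after 3 h, and 1, 4 and 3 after 8 h, against backgrounds of 5.92% and 9.30%. By the rule of 10 kb or gene body the OCI-LY3 counts were 1, 3 and 4 after 3 h, and 2, 5 and 6 after 8 h, against 10.6% and 19%, and those of VAL were 3, 6 and 4 after 3 h, and 3, 9 and 8 after 8 h, against 16.9% and 36.9%. Of the 55 genes 31 were in no list at 1 kb, as were 67.6% of all genes, and 21 at 10 kb or gene body, as were 43.0%. Within 1 kb the regulators in VAL 8 h, with MAPK3, SRF, MRTFA, MRTFB, ELK4, ATF1, CRTC2 and CRTC3, had the highest share of the 3 groups. This group and its genes are singled out after their values were seen. The other regulators had no increased region there, and CREM, one of them, had a decreased region. A link between these calls and the members was not tested.

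Among these 55 genes, 7 had a region within 1 kb of a TSS in at least 3 comparisons, each increased where it was called and each covering a TSS. Of all protein-coding genes 6.40% had a region there in at least 3 comparisons. In all 4 comparisons these were GADD45B, a stress sensor (chr19:2474742-2477349), PPP1R15A, which reverses the block on translation in stress (chr19:49375423-49376766), and MAPK3, the kinase ERK1 (chr16:30133764-30135060). SRF itself (chr6:43138648-43140325), the CREB coactivator CRTC2 (chr1:153929918-153931585) and the antiproliferative gene BTG2 (chr1:203273819-203276639) were increased in VAL at both times and in OCI-LY3 8 h. DUSP2, a phosphatase of MAP kinases (chr2:96809820-96812704), was increased in VAL 8 h and in OCI-LY3 at both times. Decreased regions within 1 kb of a TSS were listed for 5 of the 55 genes, all in VAL 8 h, where 3.38% of all genes had one. They are named here after their values were seen: NR4A2, KLF5, KLF7, RGS1 and CREM. Of the KLF genes examined, KLF5 and KLF7 were thus decreased near a TSS in VAL 8 h, and KLF2, KLF13 and KLF16 were increased. KLF3, KLF4, KLF6, KLF9, KLF10 and KLF11 had no call there. Of all genes 25.1% had an increased region there in VAL 8 h. By the rule of 10 kb or gene body, decreased regions were also listed in the other comparisons. Of the 26 other primary response genes, 4 had one in VAL 3 h, 5 in VAL 8 h, 1 in OCI-LY3 3 h and 3 in OCI-LY3 8 h, where the shares of all genes were 4.70%, 14.2%, 5.29% and 8.18%. The 15 paralogues had 0, 4, 0 and 1 in the same order, and the 14 regulators 0, 1, 1 and 0. PHLDA1, singled out after its values were seen, had a decreased region in all 4.

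**Figure D4:**
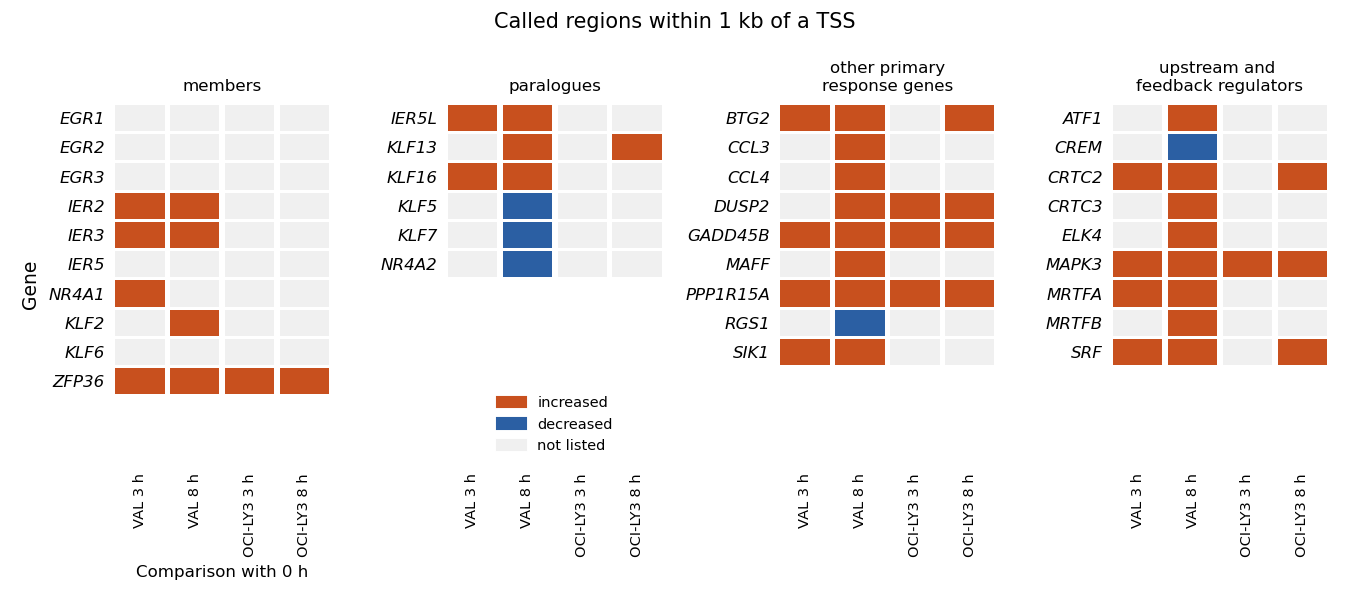
Calls within 1 kb of a TSS in each comparison with 0 h (columns) for the 10 members and for those of the 55 related genes with at least 1 call (rows). Orange is increased, blue decreased and grey not listed. ZFP36, GADD45B, PPP1R15A and MAPK3 are orange in all 4 columns, and EGR1, EGR2, EGR3, IER5 and KLF6 are grey throughout.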

How the data were processed

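The sources say that the authors aligned ATAC-seq reads to hg19 with bowtie2 and removed mitochondrial, multiply aligned and duplicate reads. The authors called peaks in each sample with MACS2 (q of 0.05), merged them with bedtools, counted reads (mapping quality of 10) and ran DESeq2, with a fold change limit of 1.5 and an adjusted p limit given as 0.01 in one place and 0.05 in another. The sources used here give no tool versions for the ATAC-seq steps. The deposited lists hold region coordinates only, with 0 columns of per-sample values, so no test, error or interval was computed, and the standard and Fast-ATAC libraries could not be examined apart.

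Regions were joined to genes in Python 3.11.15 with pandas 2.3.3, numpy 2.4.6 and pysam 0.24.0, with GENCODE TSS of transcripts tagged basic, lifted to GRCh37, and figures were drawn with matplotlib 3.10.9. All 37071 list entries lay inside GRCh37 chromosomes. The overlap step was tested on simulated data. Motifs were searched in GRCh37 on both strands. The promoter table of RefSeq (GRCh38.p14) held 8 of the 10 members and served as an alternative. All members were named. A planned item of the related gene lists is not reported here. Related genes were named where a region lay within 1 kb of a TSS in at least 3 comparisons, and some where they shared a member's pattern. The regulators increased in VAL 8 h, the decreased genes and the KLF paralogues were named after their values were seen. The members and lists were chosen with earlier results of these data known. Alternatives varied the distance, the gene body rule, the annotation, chromosome 19 and the promoter window.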

Additional observations from a re-analysis of the deposited data

How the results depend on the processing

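Of 214 alternative values 165 stayed within 1.5 times the main value and 49 moved. Within 50 kb, members with an increased region were 7 in VAL 3 h, 7 in VAL 8 h, 2 in OCI-LY3 3 h and 4 in OCI-LY3 8 h, with 15, 28, 4 and 8 increased regions. The shares of all protein-coding genes at that distance, added after seeing the data, were 27.0%, 48.3%, 19.7% and 31.1%. At that distance 1 member had a decreased region in VAL 3 h (1 region) and 1 in VAL 8 h (2 regions), beside 8.13% and 21.3% of all genes. In OCI-LY3 it was 1 member at 3 h and 0 at 8 h, beside 9.99% and 13.8%. Within 1 kb the increased regions in VAL 8 h were 5, and members and regions decreased in OCI-LY3 3 h were 0 and 0. Without chromosome 19 members with an increased region were 2, 1, 0 and 0. The background moved with the rule by construction. Within 1 kb it was 10.3% (VAL 3 h), 5.92% (OCI-LY3 3 h) and 9.3% (OCI-LY3 8 h) for increased regions, and 0.322%, 3.38%, 0.694% and 1.28% for decreased regions. Within 10 kb without gene bodies it was 1.67%, 7.53%, 2.27% and 3.38% for decreased regions. Over all annotated genes it was 8.83%, 20.8%, 5.38% and 9.91% for increased regions, and 2.8% (VAL 3 h), 3.17% and 5.1% (OCI-LY3 3 h and 8 h) for decreased regions. From 1000 bases before to 100 after the TSS, 1 member, EGR2, held an NF-kB match, as did 1.54% of all promoters. In that window the CArG box was matched in 3 members and in 5.24% of all promoters, against 1.20% in the shorter window. The median distances without chromosome 19, also added after seeing the data, are given beside those of all 10 members.

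No paired analysis was possible because the lists give coordinates alone. For the same reason leaving out a replicate and other limits on fold change or p could not be run.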
